A study of Homo sapiens with 18 samples.

Results

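A set of 10 genes that report on signalling through the RAS, RAF, MEK and ERK cascade were followed in 3 human cancer cell lines in which MUC1 can be silenced by doxycycline. They were chosen by name: the phosphatases DUSP4, DUSP5 and DUSP6, the inhibitors SPRY2, SPRY4 and SPRED1, the transcription factors ETV4, ETV5 and FOSL1, and PHLDA1. All 10 were listed in each of the 3 tables, among 25673 genes for RKO, 19881 for COLO 201 and 19977 for H1975, or 26804 symbols in all. RKO and COLO 201 are colon cancer lines that carry mutant BRAF, and H1975 is a lung cancer line that carries mutant EGFR. What drives the cascade in each line was not measured, and the parts of genotype, tissue and line cannot be told apart here. Every group carried the same tet-inducible MUC1 hairpin and puromycin resistance and grew in medium with 10% serum. EMEM was used for RKO and RPMI1640 for the others. In each line, 3 columns with 0.1% DMSO, the vehicle, were set against 3 columns with 500 ng/ml doxycycline; for RKO the vehicle arm is an inference, since those headings carry no sign. The hours of treatment are not given in the sources used here. Columns of a control hairpin under doxycycline were not analysed here, and the hairpin and the drug itself cannot be told apart. The study asked about MUC1-C, the transmembrane C-terminal subunit of the mucin MUC1.

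ERK, the last kinase of the cascade, phosphorylates transcription factors and thereby raises the mRNA of a small set of genes within hours. Several of these genes encode brakes on the same cascade: DUSP proteins remove the phosphates from ERK, and Sprouty and SPRED proteins act upstream, near RAS and RAF. The mRNA of such genes is therefore widely read as a measure of ERK output in tumours with mutant BRAF or EGFR. ETV4 and ETV5 belong to the PEA3 branch of the ETS factors, which bind DNA around a GGAA core.

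A region just upstream of SPRY2 is shown because SPRY2 moved against ETV4 and ETV5 in COLO 201, as given below. No annotated exon overlaps any of the 3 SPRY2 windows at hand, and the one shown is the only one with an ETS match. A link between these factors and SPRY2 was not tested. The region shown spans chr13:80341127-80341376 of GRCh38.p14, on the minus strand, and covers the 250 bases before a RefSeq start. Capitals mark the only match to the ETS motif CCGGAA, searched on both strands.
SPRY2 upstream region: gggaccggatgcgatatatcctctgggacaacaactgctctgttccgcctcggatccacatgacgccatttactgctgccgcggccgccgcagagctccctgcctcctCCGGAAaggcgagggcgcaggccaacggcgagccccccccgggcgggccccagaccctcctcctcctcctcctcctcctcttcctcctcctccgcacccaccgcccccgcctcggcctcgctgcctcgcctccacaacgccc
The same window held no match to the AP-1 motif TGAGTCA. Among 35116 RefSeq windows of 250 bases, 14.5% held the ETS motif and 4.2% the AP-1 motif, so a match is common and is a description only. Windows were at hand for 5 of the 10 genes. Of the others, the PHLDA1 window held 1 ETS match, and those of DUSP6, SPRY4 and SPRED1 and 2 further SPRY2 windows held none.

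MUC1 itself was measured first, as a check of the arms. In COLO 201 it stood at 13.2, 15.0 and 13.6 TPM (transcript counts scaled to the same total in every column) with vehicle and at 2.03, 1.78 and 1.53 TPM with doxycycline. H1975 had 101, 86.2 and 105 TPM against 7.05, 9.56 and 7.44 TPM. RKO had 15.2, 1.24 and 1.03 TPM against 0.108, 0.105 and 0.204 TPM. MUC1 was lower with doxycycline in every column of every line, and the arms did not overlap. On the log2(TPM + 1) scale its change was -2.43 ± 0.08 (SE) in COLO 201 (limma adjusted p = 3.49e-10), -3.46 ± 0.10 in H1975 (adjusted p = 4.13e-11) and -1.88 ± 0.43 in RKO (adjusted p = 0.00272). The RKO value rests on vehicle column 1, and its adjusted p was 0.145 once the columns were rescaled.

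The RKO columns need care in 2 respects. Small noncoding RNA genes took 67.8% to 78.7% of all TPM there, against less than 1% in the other lines, and the median change over the 10551 genes tested was -0.26 on the log2 scale. The median was 0.12 in COLO 201 and 0.06 in H1975. Changes are therefore also given after each column was rescaled by its median ratio to the geometric mean of the columns, which brought these medians to -0.01, 0.00 and 0.00. The other point is vehicle column 1 of RKO, which stood apart: VIM was at 361 TPM there and at 0.908 to 2.46 TPM in the other columns, and 12 fibroblast and endothelial markers summed to 711 TPM against 2.5 to 8.17 TPM. COL1A1 at 54.6 TPM and THY1 at 56.2 TPM were among them, while DCN was at 0.994 TPM and PDGFRB at 0.0157 TPM. The endothelial markers CDH5 and VWF were at 0 in that column, and PECAM1 was at 0.0226 TPM. Of the colon markers, RKO had VIL1, KRT20, GPA33 and TFF3 at 0, with CDX2 at 1.18 to 2.96 TPM. COLO 201 expressed VIL1, LGALS4 and TFF3, with CDX1 at or near 0. In H1975 the lung marker NKX2-1 was at 15.1 to 25.6 TPM, with SFTPC and SCGB1A1 at 0.

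TPM allow levels to be ordered within a table, but the tables cover different gene lists, so levels are not compared between lines. With vehicle, FOSL1, an AP-1 subunit, and PHLDA1, a small pleckstrin homology protein induced by growth factors, took the first 2 places in each line. FOSL1 led in RKO at 168 ± 44.7 TPM (SD, n = 3) and in H1975 at 202 ± 7.46 TPM, and PHLDA1 led in COLO 201 at 366 ± 19.6 TPM. The ranges of these 2 genes did not overlap in any line. In RKO PHLDA1 and SPRY4 overlapped in places 2 and 3.

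The phosphatases took different places in the 3 lines. DUSP4, which acts in the nucleus, held place 3 in COLO 201 at 90.7 ± 2.26 TPM, place 9 in H1975 at 10.2 ± 0.193 TPM and last in RKO. DUSP5, the nuclear ERK-specific phosphatase, ran the other way: it was last in COLO 201 at 5.87 ± 0.500 TPM, place 3 in H1975 at 73.0 ± 6.43 TPM and place 4 in RKO at 32.4 ± 10.2 TPM. DUSP6, its cytoplasmic counterpart, held places 4, 5 and 6 in COLO 201, H1975 and RKO. Neighbours in the order whose ranges overlapped with vehicle were ETV5 and SPRED1 in COLO 201, none in H1975, and in RKO, beside PHLDA1 and SPRY4, the runs from DUSP5 to ETV4 and from SPRY2 to DUSP4.

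**Figure D1:**
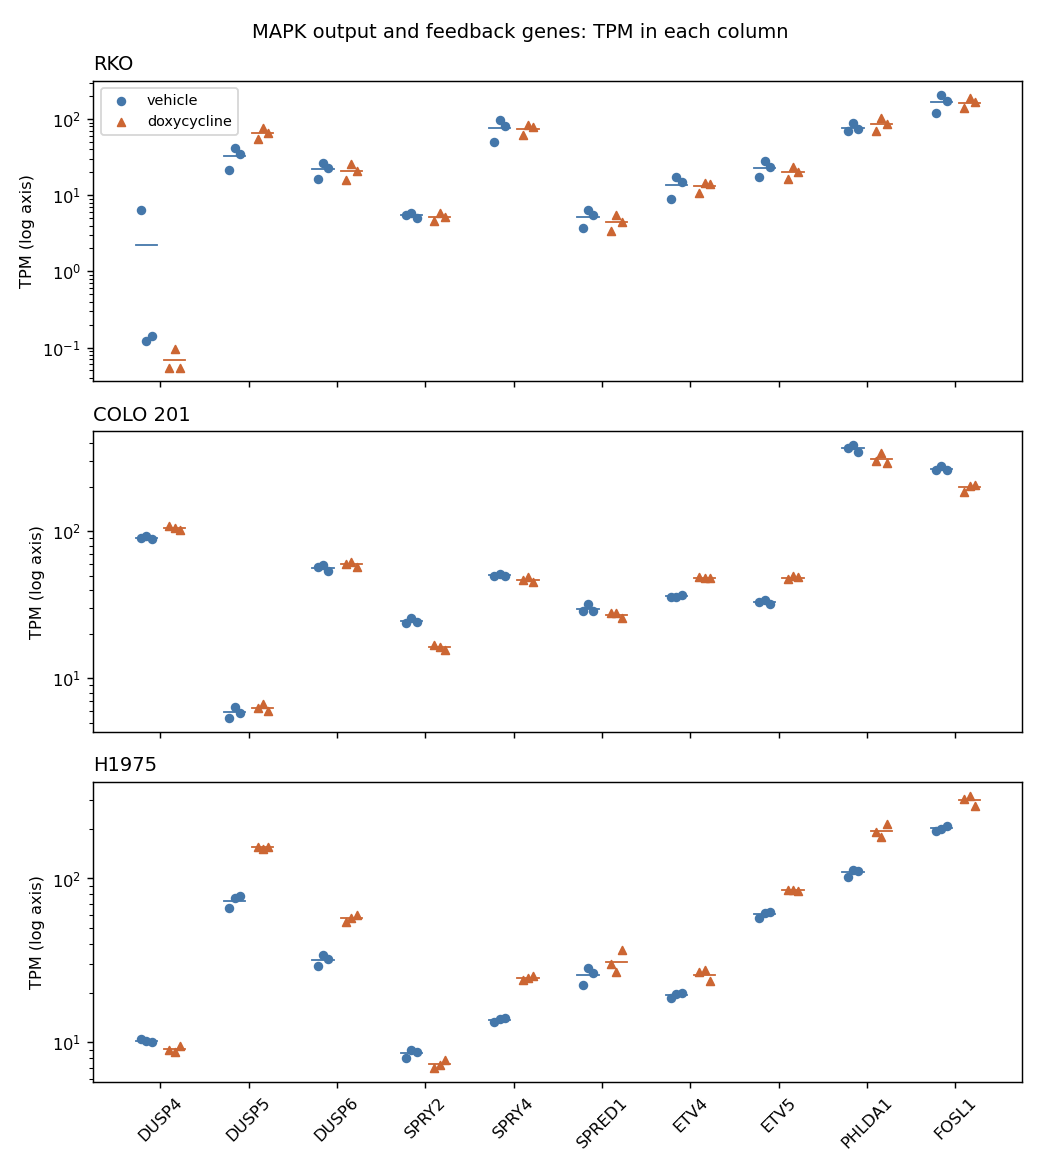
TPM of the 10 genes in each column, on a log axis, with 1 panel per line; circles are vehicle, triangles doxycycline, and short lines the means of 3 columns. DUSP4 in RKO has 1 vehicle column at 6.43 TPM and 5 columns below 0.15 TPM, whereas 7 genes in H1975 have all doxycycline columns above all vehicle columns.

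In H1975, 7 of the 10 rose with doxycycline and none fell in limma, where 23.9% of all 12359 genes tested were called higher and 14.6% lower; a call is an adjusted p under 0.05 over all genes tested in a line. At an unadjusted p under 0.05, 8 were higher and 2 lower. No share of all genes at an unadjusted p is given here, for H1975 or for RKO below. In COLO 201, 3 rose and 3 fell, where 45.9% of 11566 genes were called higher and 15% lower. In RKO 1 rose and none fell, where 2.09% of 10551 genes were called higher and 16.1% lower, and 1 gene was lower at an unadjusted p under 0.05. The median change of the 10 genes was 0.52 in H1975, -0.01 in COLO 201 and -0.04 in RKO. Because bulk RNA was measured, a change in the level per cell and a change in the mix of cells cannot be told apart.

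The summed TPM of the 10 genes, given without a test, is weighted towards the abundant FOSL1 and PHLDA1. The sum rose from 523, 567 and 573 TPM with vehicle to 891, 889 and 895 TPM with doxycycline in H1975. In COLO 201 the sums were 952, 999 and 930 TPM with vehicle and 851, 909 and 849 TPM with doxycycline. In RKO they were 320, 520 and 436 TPM against 374, 524 and 463 TPM. The arms were apart in H1975 and COLO 201, in opposite directions, and overlapped in RKO. In COLO 201 the means of PHLDA1, 366 and 312 TPM, and of FOSL1, 267 and 199 TPM, differed by more in total than the sums did.

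The columns of the arms did not overlap for 9 genes in H1975, 7 above and 2 below vehicle, for 8 in COLO 201, 3 above and 5 below, and for 2 in RKO, DUSP5 above and DUSP4 below. DUSP4 counts there through a single vehicle column, with the other 5 columns near 0. Among all genes tested the arms did not overlap for 49.1%, 65.1% and 36.3% in the same order. After rescaling, 7 genes were called higher and 2 lower in H1975, against 18.5% and 19.9% of all genes. COLO 201 then had 3 higher and 5 lower, against 28.5% and 28.7%, and RKO had 3 higher and none lower, against 13.7% and 14.2%. The 2 added calls in H1975 were DUSP4 and SPRY2, both lower, and those in COLO 201 were SPRY4 and SPRED1, both lower. In RKO the added calls were SPRY2 and PHLDA1, both higher.

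**Figure D2:**
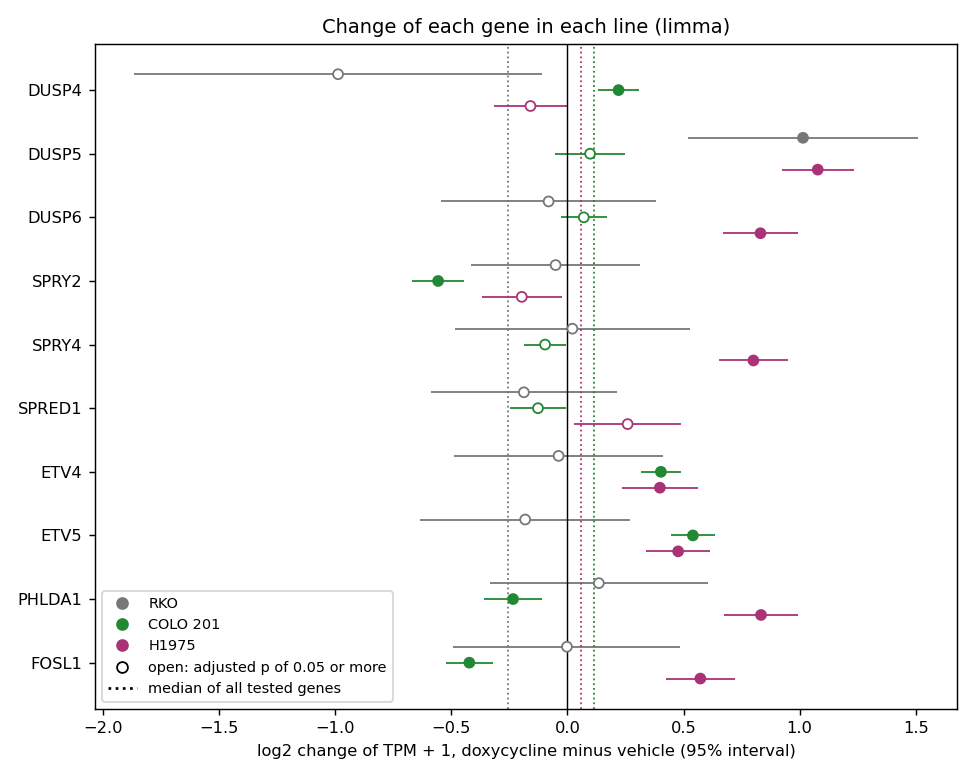
Log2 change of TPM + 1 (doxycycline minus vehicle) with its 95% interval for each gene in each line; filled points have a limma adjusted p under 0.05 and dotted lines mark the median of all genes tested. H1975 has 7 filled points, all to the right of 0, COLO 201 has 3 on each side, and RKO has 1, DUSP5.

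Among the phosphatases, DUSP5 rose in both RKO and H1975, to 2.00 and 2.12 times its mean vehicle level. It lies at chr10:110497838-110511544 on the plus strand (GENCODE release 29, GRCh38). In RKO it stood at 21.4, 41.5 and 34.3 TPM with vehicle and at 54.2, 75.4 and 64.7 TPM with doxycycline. In H1975 it stood at 65.7, 75.5 and 77.9 TPM against 156, 152 and 156 TPM. All doxycycline columns were above all vehicle columns in both lines. The log2 change was 1.01 ± 0.24 in RKO (limma adjusted p = 0.00411), or 1.30 after rescaling (adjusted p = 0.00621), and 1.08 ± 0.07 in H1975 (adjusted p = 1.25e-07). With no minimum on TPM the RKO adjusted p was 0.109, in a setting that called only 28 genes in all of RKO. COLO 201 had 5.38, 6.38 and 5.85 TPM against 6.25, 6.73 and 6.05 TPM, and its change of 0.10 ± 0.07 did not pass the test (limma adjusted p = 0.247).

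DUSP6, the phosphatase most often used as a marker of ERK output, rose in H1975. It lies at chr12:89347232-89353271 on the minus strand. Its H1975 values were 29.1, 34.2 and 32.1 TPM with vehicle and 54.6, 57.1 and 59.9 TPM with doxycycline, so that it rose by 0.83 ± 0.08 on the log2 scale (limma adjusted p = 2.31e-06). The arms overlapped in both BRAF-mutant lines. COLO 201 had 57.5, 58.7 and 54.0 TPM against 59.7, 61.6 and 57.6 TPM, and RKO had 16.4, 26.5 and 22.7 TPM against 15.6, 25.7 and 20.6 TPM. The changes were 0.07 ± 0.05 and -0.08 ± 0.23, and the signs of both turned on rescaling (-0.05 and 0.20).

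DUSP4 did not follow its relatives. In COLO 201 it rose from 89.7, 93.2 and 89.0 TPM to 109, 106 and 102 TPM, by 0.22 ± 0.04 on the log2 scale (limma adjusted p = 5.25e-04), or 0.10 after rescaling (adjusted p = 0.0254). In H1975 it was at 10.4, 10.2 and 10.0 TPM with vehicle and 8.97, 8.70 and 9.52 TPM with doxycycline. All 3 doxycycline columns there were below vehicle, but the change of -0.16 ± 0.07 missed the threshold (limma adjusted p = 0.102) and passed it after rescaling (-0.21, adjusted p = 0.0248).

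In RKO, DUSP4 was close to silent in all columns but 1. Vehicle column 1 had 6.43 TPM, the other vehicle columns 0.123 and 0.140 TPM, and the doxycycline columns 0.0546, 0.0961 and 0.0546 TPM. The gene met the minimum of 1 TPM on average only through the column in which the fibroblast and endothelial list summed to 711 TPM. The source of that RNA, and its part in the DUSP4 value, were not tested. Its change was -0.99 ± 0.43 (limma adjusted p = 0.103).

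The Sprouty and SPRED genes encode inhibitors that act above ERK. SPRY4 rose in H1975, from 13.4, 14.0 and 14.0 TPM to 24.2, 24.7 and 25.3 TPM, or by 0.80 ± 0.07 on the log2 scale (limma adjusted p = 1.41e-06). In COLO 201 it had 49.6, 51.1 and 49.8 TPM against 46.6, 48.6 and 45.4 TPM. All doxycycline columns were below vehicle there, and the change of -0.10 ± 0.04 missed the threshold (limma adjusted p = 0.0634) but passed after rescaling (-0.22, adjusted p = 3.07e-04). RKO ranged from 49.5 to 97.9 TPM with vehicle and from 62.2 to 83.2 TPM with doxycycline.

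SPRY2 fell in COLO 201, and it was below vehicle in H1975 too, where its sister gene SPRY4 rose. Its COLO 201 values were 23.8, 25.6 and 24.2 TPM with vehicle and 16.9, 16.4 and 15.7 TPM with doxycycline, a fall of 0.56 ± 0.05 on the log2 scale (limma adjusted p = 1.76e-06). H1975 had 7.98, 8.99 and 8.76 TPM against 6.93, 7.33 and 7.81 TPM. Its change there, -0.20 ± 0.08, missed the threshold (limma adjusted p = 0.0665) and passed it after rescaling (-0.25, adjusted p = 0.0126). In RKO the arms overlapped, at 5.45, 5.77 and 5.04 TPM against 4.55, 5.91 and 5.19 TPM, and the sign depended on the scale: -0.05 ± 0.18 as deposited (limma adjusted p = 0.858) and 0.20 after rescaling (adjusted p = 0.0485).

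SPRED1, which recruits the RAS inhibitor neurofibromin to the membrane, was the only gene of the 10 that was called in no line as deposited. H1975 had 22.4, 28.4 and 26.5 TPM with vehicle and 29.9, 26.8 and 36.6 TPM with doxycycline (change 0.26 ± 0.11, limma adjusted p = 0.0698). COLO 201 had 28.5, 32.0 and 28.6 TPM against 27.9, 27.7 and 25.7 TPM (change -0.13 ± 0.06, limma adjusted p = 0.0646), and this was called lower after rescaling (-0.25, adjusted p = 7.44e-04). RKO ranged from 3.38 to 6.32 TPM over both arms.

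The ratio of SPRY4 to SPRY2 within a column does not depend on the scaling of the columns. It was 1.67, 1.55 and 1.60 with vehicle and 3.48, 3.37 and 3.24 with doxycycline in H1975, and 2.09, 2.00 and 2.06 against 2.75, 2.96 and 2.89 in COLO 201. So the balance between the 2 mRNAs was shifted towards SPRY4 in both lines, through a rise of SPRY4 in H1975 and a fall of SPRY2 in COLO 201. In RKO the ratio ranged from 9.07 to 17.0 with vehicle and from 13.7 to 15.2 with doxycycline. The ratio of DUSP6 to DUSP5 was lower with doxycycline in RKO, at 0.767, 0.638 and 0.659 against 0.288, 0.340 and 0.318, and in H1975, at 0.442, 0.453 and 0.412 against 0.350, 0.375 and 0.383. It overlapped between the arms in COLO 201, with means of 9.71 and 9.41. With 3 columns against 3, an exact two-sided permutation test cannot go below p = 0.10, so the ratios are described without one.

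**Figure D3:**
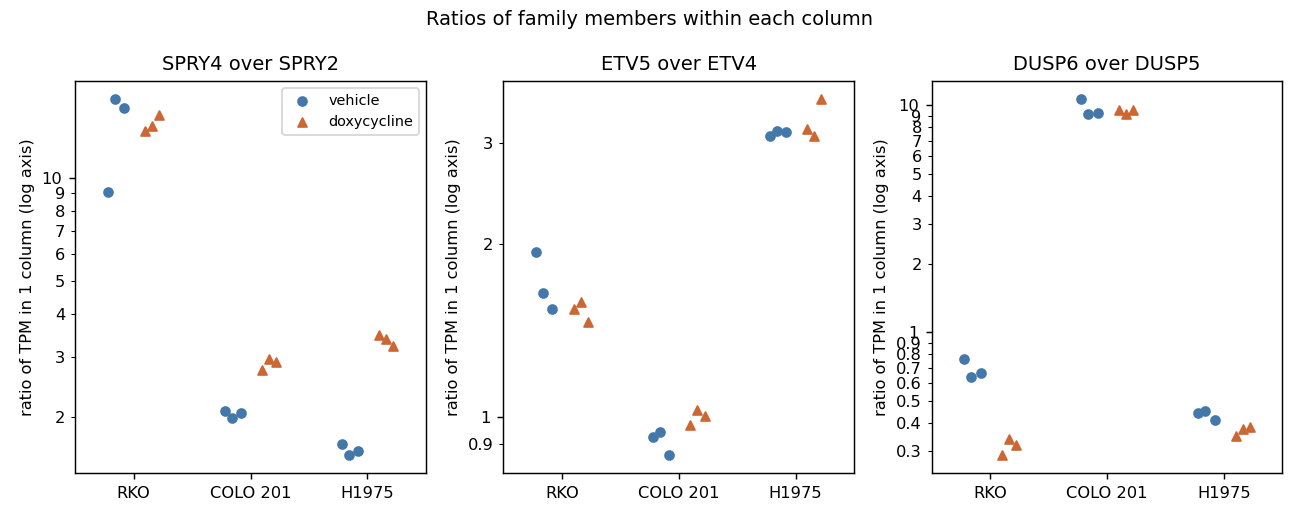
Ratio of the TPM of 2 family members in each column, on a log axis, for SPRY4 over SPRY2, ETV5 over ETV4 and DUSP6 over DUSP5; circles are vehicle and triangles doxycycline. SPRY4 over SPRY2 is higher with doxycycline in COLO 201 and H1975, and DUSP6 over DUSP5 is lower in RKO and H1975, with no overlap of the arms.

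ETV4 and ETV5 rose in COLO 201 and in H1975 by similar amounts. In COLO 201, ETV4 (chr17:43527844-43579620, minus strand) went from 36.0, 36.0 and 37.1 TPM to 48.9, 48.1 and 48.2 TPM, and ETV5 (chr3:186046308-186110318, minus strand) from 33.3, 34.0 and 31.9 TPM to 47.4, 49.5 and 48.6 TPM. The log2 changes were 0.40 ± 0.04 for ETV4 (limma adjusted p = 3.57e-06) and 0.54 ± 0.04 for ETV5 (adjusted p = 5.57e-07). In H1975, ETV4 went from 18.6, 19.6 and 19.99 TPM to 26.8, 27.5 and 23.5 TPM (0.40 ± 0.08, limma adjusted p = 0.00123), and ETV5 from 57.5, 61.7 and 62.8 TPM to 85.1, 84.9 and 84.3 TPM (0.48 ± 0.07, adjusted p = 8.08e-05). No doxycycline column of either gene overlapped a vehicle column in these lines. RKO showed neither change: ETV4 ranged from 9.03 to 17.1 TPM with vehicle and from 10.6 to 14.6 TPM with doxycycline, and ETV5 from 17.5 to 28.2 TPM and from 16.4 to 23.2 TPM. The 95% intervals of the RKO changes, -0.49 to 0.41 for ETV4 and -0.63 to 0.27 for ETV5, are wide.

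PHLDA1 and FOSL1, the most abundant pair, moved in opposite directions in the BRAF-mutant COLO 201 and the EGFR-mutant H1975. PHLDA1 (chr12:76025447-76033932, minus strand) went from 102, 113 and 111 TPM to 192, 180 and 214 TPM in H1975, by 0.83 ± 0.07 on the log2 scale (limma adjusted p = 2.16e-06). In COLO 201 it went from 367, 385 and 346 TPM to 302, 340 and 293 TPM, by -0.23 ± 0.06 (limma adjusted p = 0.00346). In both lines the arms were apart, by a small gap in COLO 201. RKO had 70.0, 87.5 and 74.2 TPM against 69.1, 103 and 84.8 TPM, a change of 0.14 ± 0.23 as deposited (limma adjusted p = 0.699) and 0.43 after rescaling (adjusted p = 0.00669).

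FOSL1 (chr11:65892049-65900573, minus strand) encodes FRA1, which ERK also stabilises as a protein. It went from 195, 201 and 210 TPM to 306, 320 and 278 TPM in H1975, by 0.57 ± 0.07 (limma adjusted p = 2.68e-05), and from 261, 277 and 263 TPM to 186, 205 and 207 TPM in COLO 201, by -0.42 ± 0.05 (adjusted p = 8.33e-06). The arms were apart in both. In RKO it ranged from 120 to 209 TPM with vehicle and from 138 to 187 TPM with doxycycline, with no call.

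**Figure D4:**
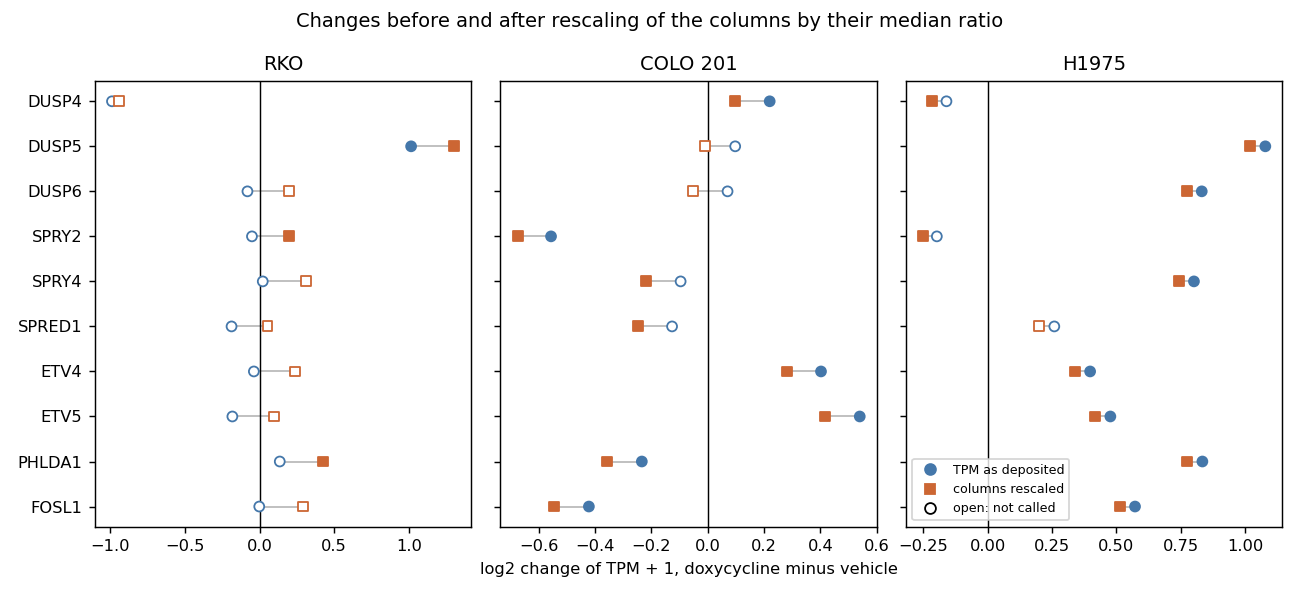
Log2 change of TPM + 1 for each gene with TPM as deposited (circles) and after each column was rescaled by its median ratio (squares); filled symbols have a limma adjusted p under 0.05. Rescaling moves RKO to the right, with 3 filled squares, moves COLO 201 to the left, and changes H1975 little.

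The spread between columns sets what could be seen in RKO. With vehicle the coefficient of variation of the 9 genes other than DUSP4 reached 32.3% there, against 8.52% over all 10 genes in COLO 201 and 11.8% in H1975. Vehicle column 1 of RKO was the lowest vehicle column for 8 of the 10 genes, and doxycycline column 1 the lowest of its arm for 9. Genes without a call in RKO are therefore reported with their ranges, and their changes are not shown to be absent.

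Whether a gene changed differently in 2 lines was tested in a joint fit of both lines. Between COLO 201 and H1975 the changes of 8 of the 10 genes differed, against 38.6% of 10823 genes tested. DUSP4 was the one gene with the higher change in COLO 201 (difference 0.38 ± 0.07, limma adjusted p = 7.04e-04). The change was lower in COLO 201 for PHLDA1 (-1.07 ± 0.10), FOSL1 (-0.99 ± 0.08), DUSP5 (-0.98 ± 0.10), SPRY4 (-0.90 ± 0.07), DUSP6 (-0.76 ± 0.09), SPRED1 (-0.39 ± 0.14) and SPRY2 (-0.36 ± 0.09). For ETV4 and ETV5 no difference was found, and the 95% intervals of the difference, -0.17 to 0.18 and -0.08 to 0.21, are narrow against their changes. SPRED1 has the largest adjusted p of the 8 (limma adjusted p = 0.0359), and its call was lost when COLO 201 vehicle column 2 or doxycycline column 1 or 3, or H1975 vehicle column 1 or 3 or doxycycline column 3, was left out.

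RKO differed from COLO 201 for 3 genes, against 38.1% of 9435 genes tested: the change in RKO was higher for DUSP5 (0.92 ± 0.26, limma adjusted p = 0.0110) and SPRY2 (0.51 ± 0.16, adjusted p = 0.0211) and lower for ETV5 (-0.72 ± 0.22, adjusted p = 0.0163). After rescaling DUSP5 and SPRY2 still differed, PHLDA1 (0.79) and FOSL1 (0.84) did as well, and ETV5 (-0.32) did not. Without RKO vehicle column 2 the count was 5. The SPRY2 call was lost without RKO doxycycline column 3 and without COLO 201 vehicle column 2 or 3 or doxycycline column 2 or 3. RKO differed from H1975 for 4 genes, against 23% of 9674: DUSP6 (-0.91 ± 0.25), SPRY4 (-0.78 ± 0.27), PHLDA1 (-0.70 ± 0.21) and ETV5 (-0.66 ± 0.22) all changed less or in the lower direction in RKO. This count moved between 0 and 7 when single columns were left out: it was 0 without RKO doxycycline column 1 or without vehicle column 1 or doxycycline column 3 of H1975, 7 without RKO vehicle column 1, and 1 or 2 without any other column except RKO doxycycline column 2. After rescaling it was 3, namely DUSP6 (-0.57), PHLDA1 (-0.35) and SPRY2 (0.45). For DUSP5 the RKO and H1975 changes were not told apart (difference -0.06, 95% interval -0.63 to 0.51).

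A wider list of genes known to respond to ERK moved differently in COLO 201 and H1975. The list was chosen with earlier results of these data known, so its counts are a description only. Of 37 such genes, 34 were tested in each of these lines. In H1975, 24 rose and 2 fell (median change 0.33), beside 23.9% and 14.6% of all genes tested. In COLO 201, 9 rose and 16 fell (median -0.07), beside 45.9% and 15%. In RKO 31 were tested, of which 5 rose and 5 fell (median 0.12), beside 2.09% and 16.1%. After rescaling 13 rose and 3 fell in RKO, beside 13.7% and 14.2% of all genes. H1975 then had 24 and 3, beside 18.5% and 19.9%, and COLO 201 had 6 and 19, beside 28.5% and 28.7%. The genes that fell in COLO 201 and rose in H1975 were 9 of 34, beside 2.14% of all 10823 genes tested in both lines: EGR1, FOS, CCND1, EPHA2, HBEGF, AREG, PLAUR, MCL1 and TNFRSF12A. After rescaling these 9 were again called so, with 3 more, HMGA2, KLF10 and LIF. The share of all genes with this pattern after rescaling is not given here. HBEGF, which encodes a ligand of EGFR, fell from 5.34 ± 0.566 TPM with vehicle to 1.21 ± 0.0668 TPM in COLO 201 (-1.52 ± 0.08, limma adjusted p = 2.03e-08) and changed by 0.38 in H1975. EPHA2, a receptor tyrosine kinase, rose from 35.2 ± 1.80 to 59.1 ± 3.12 TPM in H1975 (0.73 ± 0.07, limma adjusted p = 4.29e-06) and changed by -0.35 in COLO 201. The difference itself passed the test for 25 of the 34 genes, 22 of them with the lower change in COLO 201, beside the 38.6% of all genes that differed between these lines.

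In both lines together 7 of these 34 genes rose as deposited, where 14% of all genes did. After rescaling 5 did, and the share of all genes on that scale is not given here. ETV1, the remaining PEA3 factor, was one of them on both scales. In these 2 lines it rose with ETV4 and ETV5, from 0.777 ± 0.0741 to 2.72 ± 0.201 TPM in COLO 201 (1.06 ± 0.08, limma adjusted p = 3.23e-07) and from 7.30 ± 0.697 to 13.2 ± 0.362 TPM in H1975 (0.78 ± 0.08, adjusted p = 8.15e-06). In RKO ETV1 fell instead, from 2.14, 1.56 and 1.27 TPM to 0.427, 0.646 and 0.498 TPM (-0.79 ± 0.24, limma adjusted p = 0.0202). It was still called lower after rescaling (-0.66, limma adjusted p = 0.0210). In RKO and COLO 201 ETV1 met the minimum of 1 TPM on average only through the arm where it was higher. The opposite calls of these 2 lines are therefore a description only. MYC, the growth regulator, rose in all 3 lines, by 0.67 ± 0.23 in RKO (limma adjusted p = 0.0429), 0.50 ± 0.04 in COLO 201 and 0.61 ± 0.07 in H1975. IER3, an immediate early gene, rose in all 3 as deposited, by 0.88 ± 0.19 in RKO (limma adjusted p = 0.00152), 0.12 ± 0.05 in COLO 201 and 0.34 ± 0.07 in H1975, but rescaling ended the call in COLO 201 (adjusted p = 0.952). LIF, a cytokine, rose in RKO from 14.8 ± 4.20 TPM with vehicle to 26.9 ± 3.88 TPM with doxycycline (0.85 ± 0.22, limma adjusted p = 0.00851) and in H1975 from 25.3 ± 0.990 to 44.9 ± 3.08 TPM (0.80 ± 0.07, adjusted p = 2.43e-06). PLAU, the urokinase gene, fell from 13.4 ± 0.272 TPM with vehicle to 6.24 ± 0.327 TPM with doxycycline in COLO 201 (-0.99 ± 0.06, limma adjusted p = 3.87e-08).

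**Figure D5:**
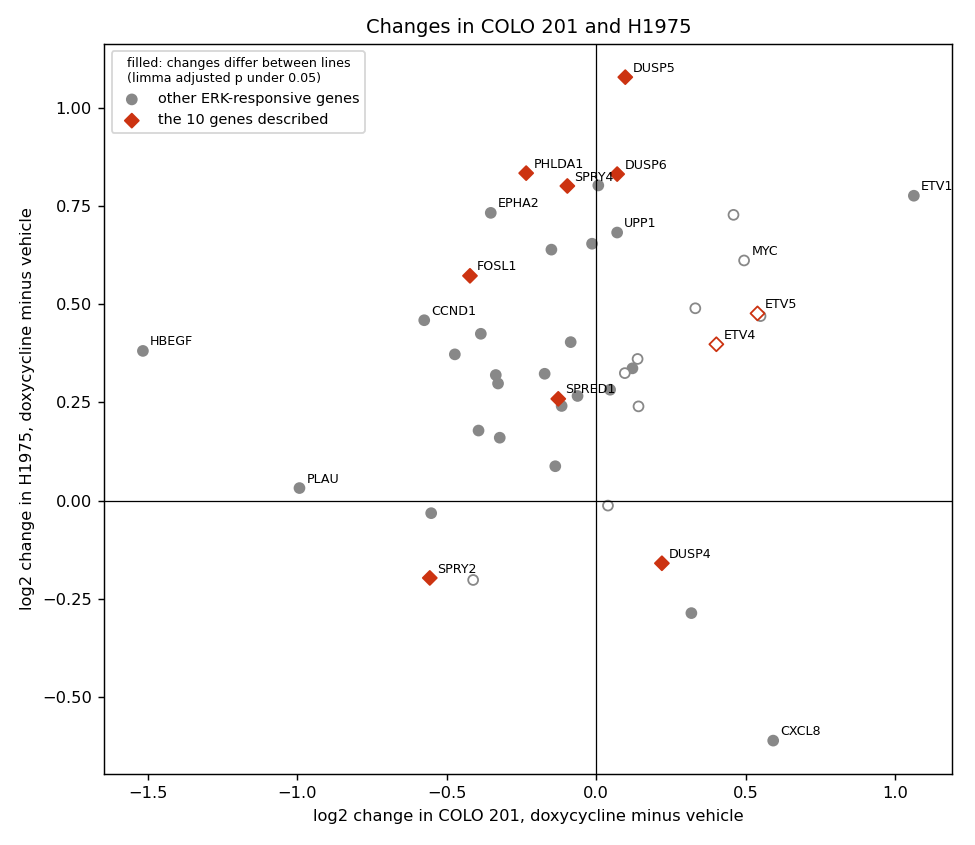
Log2 change of TPM + 1 in COLO 201 (horizontal) against H1975 (vertical) for the 10 genes (diamonds) and 34 other ERK-responsive genes (circles); filled symbols mark a change that differs between the lines (limma adjusted p under 0.05). HBEGF, CCND1, EPHA2, FOSL1 and PHLDA1 lie in the upper left, lower in COLO 201 and higher in H1975, while ETV1, ETV4, ETV5 and MYC lie in the upper right.

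Directions among the kinases and adaptors of the cascade depended on the scale. Of its 29 components, 12 rose and 5 fell in COLO 201 among 28 tested, 7 rose and 3 fell in H1975 among 29, and none rose and 5 fell in RKO among 27 in limma, with none higher and 5 lower at an unadjusted p under 0.05. By adjusted p, 45.9% of all genes tested were called higher and 15% lower in COLO 201. The shares were 23.9% and 14.6% in H1975, and 2.09% and 16.1% in RKO. No share is given here for the unadjusted counts. The medians of the components, 0.11 in COLO 201 and -0.25 in RKO, lay near those of all genes, 0.12 and -0.26. In H1975 the component median was 0.14, beside 0.06 for all genes. After rescaling 5 were higher and 9 lower in COLO 201, 5 and 3 in H1975, and 4 and 2 in RKO. The shares of all genes were then 28.5% and 28.7%, 18.5% and 19.9%, and 13.7% and 14.2%. MAPK3, which encodes ERK1, had 26.0 ± 0.0728 TPM with vehicle and 34.5 ± 1.02 TPM with doxycycline in COLO 201 (0.40 ± 0.04, limma adjusted p = 7.87e-06), and MKNK2, a kinase that ERK activates, rose there by 0.59 ± 0.05. HRAS fell in H1975 from 20.6 ± 1.91 to 13.7 ± 1.09 TPM (-0.56 ± 0.09, limma adjusted p = 2.00e-04) and in RKO by 0.52 ± 0.18 (adjusted p = 0.0456). EGFR was called lower in RKO (-0.92 ± 0.31, limma adjusted p = 0.0395), but its vehicle column 1, at 16.2 TPM, stood far above the other two, at 3.46 and 2.86 TPM, and rescaling ended the call (adjusted p = 0.392). In COLO 201 EGFR fell from 21.2, 22.1 and 21.2 TPM to 17.0, 17.3 and 15.5 TPM (-0.36 ± 0.05, limma adjusted p = 1.03e-04), and in H1975, where it is mutant, it rose from 93.8, 104 and 99.1 TPM to 110.3, 112 and 120.2 TPM (0.20 ± 0.07, adjusted p = 0.0301). Both calls held after rescaling, and the 2 changes differed (difference -0.56 ± 0.08, limma adjusted p = 5.77e-05).

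Other MAP kinase phosphatases moved in both directions. Of 8 genes, 2 rose and 2 fell in COLO 201 among 6 tested, and 3 rose and 1 fell in H1975 among 8. None was called in RKO among 5 in limma. At an unadjusted p under 0.05, 1 was higher there and none lower, with no share of all genes given here. DUSP16, which acts on JNK, rose in COLO 201 from 4.41 ± 0.0597 to 8.37 ± 0.543 TPM and in H1975 from 25.8 ± 2.01 to 34.4 ± 0.632 TPM. The p38 and JNK cascades, with 18 genes of which 16 were tested per line, had 1 higher and 4 lower in RKO, 6 and 7 in COLO 201, and 6 and 3 in H1975, or 2 and 6, 4 and 8, and 6 and 6 after rescaling. Over all genes tested, the shares called higher and lower were 2.09% and 16.1% in RKO, 45.9% and 15% in COLO 201, and 23.9% and 14.6% in H1975. After rescaling these shares were 13.7% and 14.2%, 28.5% and 28.7%, and 18.5% and 19.9%. MAPKAPK2, the kinase downstream of p38, was lower in all 3 lines, by -1.15 ± 0.20 in RKO (limma adjusted p = 2.02e-04), -1.05 ± 0.05 in COLO 201 and -1.25 ± 0.07 in H1975. MAPK13, p38 delta, rose by 0.99 ± 0.23 in RKO (limma adjusted p = 0.00313) and by 0.64 ± 0.07 in H1975. In COLO 201 it rose by 0.22 ± 0.04 as deposited (limma adjusted p = 5.26e-04), a call that rescaling ended (adjusted p = 0.0618).

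Markers of cell type also moved with doxycycline, and their part in the changes above was not tested. In COLO 201 the 8 colon markers summed to 240 to 254 TPM with vehicle and to 182 to 189 TPM with doxycycline. Of 6 tested, KRT20 and CDH17 rose, VIL1, LGALS4 and GPA33 fell, and TFF3 was not called. KRT20 went from 14.3 ± 0.794 to 20.1 ± 1.12 TPM. CDX2, too low to be tested, averaged 0.0955 TPM with vehicle and 0.891 TPM with doxycycline. CDH17 averaged 0.414 TPM with vehicle and 2.42 TPM with doxycycline, so it met the minimum of 1 TPM only through doxycycline. In H1975 the 7 lung markers summed to 27.0 to 31.0 TPM and to 16.3 to 19.2 TPM, with NKX2-1 and NAPSA lower and SFTPC and SCGB1A1 at 0. The fibroblast and endothelial list, which in H1975 consists mostly of VIM and CAV1, summed there to 952 to 1070 TPM and to 778 to 877 TPM, with DCN and THY1 at 0. The 6 leukocyte markers summed in COLO 201 to 1218 to 1222 TPM with vehicle and to 594 to 625 TPM with doxycycline, nearly all of it LYZ, at 1219 ± 2.10 and 610 ± 16.5 TPM, while the pan-leukocyte marker PTPRC was at or near 0 in every column. In H1975 they summed to 10.8 to 11.5 TPM and to 7.89 to 9.31 TPM, with CD3E at 0 and PTPRC near 0. The share of TPM from mitochondrially encoded genes moved as well: it was 18.4% to 21.1% with vehicle and 15.2% to 16.8% with doxycycline in COLO 201, and 16.1% to 21.1% against 14.7% to 16.04% in H1975. With those genes removed, 3 of the 10 genes were called higher and 5 lower in COLO 201, and 7 higher and 2 lower in H1975. These are the same counts as after rescaling. Shares of all genes called under this setting are not given here, so the counts are not set against a background.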

How the data were processed

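Polyadenylated RNA of cells cultured in triplicate was sequenced with a stranded kit, per the labels' protocols; STAR, DESeq2 and GRCh38 are named without versions in the submitters' processing notes. The authors deposited 1 TPM table per line with 6 columns, each summing to 1000000. TPM keep no read totals, so the depth per sample is unknown. All 18 records carry 1 agent label, so arms were read from the column headings; in RKO, columns headed DOX without a sign were read as vehicle, an inference from the protocol. Nothing says that columns came from separate experiments, so p-values measure the spread between these columns.

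Genes averaging 1 TPM or more over the columns were tested on log2(TPM + 1) with limma 3.58.1 in R 4.3.3 (trended prior variance, two-sided, Benjamini-Hochberg over all genes tested), which understates changes of low genes; line differences came from joint fits of 12 columns. The fit was tested on simulated data. Named genes are the 10, MUC1, and up to 4 called genes with the smallest adjusted p per list and line; any other gene or line named, such as MYC and IER3 in all 3 lines, the ratios and the 9 genes of opposite direction, was chosen after the values were seen. The members and lists were chosen with earlier results of these data known. Alternatives were other pseudocounts, TPM minima, scalings, no trend, a replicate block and single columns left out. Whether column numbers pair the columns was not settled. In no line did every same-numbered pair correlate above 0.1, but some pairs did. RKO pairs 1 and 2 reached 0.29 and 0.27 as deposited, and 0.0008 and 0.02 after rescaling. COLO 201 pair 3 reached 0.28 on both scales. Sequences are from RefSeq, positions from GENCODE 29.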

Additional observations from a re-analysis of the deposited data

Results flagged for a closer look

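A change that differed between 2 lines, by a test of the difference itself in limma, is what draws attention to each value here. RKO minus COLO 201 gave 0.92 for DUSP5, 0.51 for SPRY2 and -0.72 for ETV5. RKO minus H1975 gave -0.91 for DUSP6, -0.78 for SPRY4, -0.66 for ETV5 and -0.70 for PHLDA1. COLO 201 minus H1975 gave 0.38 for DUSP4, -0.98 for DUSP5, -0.76 for DUSP6, -0.36 for SPRY2, -0.90 for SPRY4, -0.39 for SPRED1, -1.07 for PHLDA1 and -0.99 for FOSL1. All are differences of log2 changes, with 3 columns per arm and line. Of all genes tested, 38.1%, 23% and 38.6% differed in these 3 comparisons, in the same order. Between RKO and H1975 the call was lost in 12 of 16 alternatives for ETV5, 11 for SPRY4, 7 for PHLDA1 and 3 for DUSP6. Between RKO and COLO 201 it was lost in 5 of 16 for SPRY2 and 1 for ETV5, and between COLO 201 and H1975 in 6 for SPRED1. Groups of 3 columns are too small for a test of single outlying values.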

How the results depend on the processing

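TPM tables hide the depth, and 3 columns per arm limit the precision, most of all in RKO. Over 940 alternatives for the single genes, 802 kept the direction and the side of the threshold, 35 gained a call, 53 lost one and 50 changed sign. In COLO 201 all 6 called genes, and in H1975 all 7, kept their call and direction under every alternative run for them; the cause of the changes listed here was not tested.

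The count of RKO genes called was 1 as reported, where 2.09% of all genes tested were called higher and 16.1% lower. It was 0 with no minimum TPM. In that setting only 28 genes were called in all of RKO, so the loss of DUSP5 is not specific to that gene. The count was 3 after rescaling, beside 13.7% of all genes higher and 14.2% lower. It was 2 with small noncoding RNA genes removed, and 3 without vehicle column 1 and with the rest rescaled. With single columns left out it was 1 to 2. The second was DUSP4 without vehicle column 2 or 3, a call set by vehicle column 1, the only column in which it exceeds 1 TPM. Shares of all genes called are not given here for the removals. The count of genes differing between RKO and COLO 201, 3 as reported, was 6 in the fit with the replicate block and 2 to 5 with single columns left out. Between RKO and H1975, 4 as reported, it ranged from 0 to 7. The labels give the column numbers no shared origin. Under the replicate block COLO 201 had 8 calls, with SPRY4 and SPRED1 added, and MUC1 in RKO lost its call.

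Signs changed on rescaling in RKO for DUSP6 (0.20), SPRY2 (0.20), SPRED1 (0.053), ETV4 (0.24), ETV5 (0.099) and FOSL1 (0.29). With small noncoding RNA genes removed the same genes gave 0.18, 0.20, 0.037, 0.22, 0.076 and 0.26. Without vehicle column 1 and rescaled, DUSP6 gave 0.039, SPRY2 0.22, ETV4 0.0018 and FOSL1 0.093. COLO 201 on rescaling gave -0.0099 for DUSP5 and -0.053 for DUSP6. Rescaled differences changed sign for DUSP6 (0.25) and SPRED1 (0.30) between RKO and COLO 201, for DUSP5 (0.28) between RKO and H1975, and for ETV4 (-0.061, and -0.0029 with a pseudocount of 0.1) between COLO 201 and H1975. With single columns left out, RKO changes ranged from -0.265 to 0.095 for DUSP6, -0.130 to 0.028 for SPRY2, -0.256 to 0.229 for SPRY4, -0.295 to 0.132 for ETV4, -0.0065 to 0.279 for PHLDA1 and -0.223 to 0.172 for FOSL1. Differences between RKO and COLO 201 then ranged from -0.335 to 0.025 for DUSP6, -0.160 to 0.326 for SPRY4 and -0.244 to 0.084 for SPRED1, that of DUSP5 between RKO and H1975 from -0.327 to 0.135, and that of ETV4 between COLO 201 and H1975 from -0.061 to 0.046.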
